A study of Mus musculus with 40 samples.

Results

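The transcription factor NRF2 (gene Nfe2l2), its inhibitor Keap1 and 6 genes of the antioxidant response that NRF2 is known to control (Srxn1, Txnrd1, Gclc, Gclm, Hmox1 and Nqo1) were followed across 40 messenger RNA libraries of mouse skeletal muscle. The 8 genes were chosen by name, out of 23621 rows of the count table, and all 8 passed the filter on low counts in both muscles. All mice were of the C57BL/6 strain, with no allele or drug named in the labels. Their age was not among the labels used here.

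Quadriceps gave 8 groups of 3 libraries. In 4 of them mice ran on a treadmill until exhausted, starting at zeitgeber time 0 (ZT0, hours counted from lights on) or at ZT12. Muscle was taken at once after the run (+0h, labelled ZT0.5 and ZT12.5) or 3 h later (+3h, labelled ZT3.5 and ZT15.5). The 4 sedentary groups were sampled at ZT0, ZT4, ZT12 and ZT16. Each +0h group was set against sedentary muscle of the session's start (ZT0 or ZT12), and each +3h group against sedentary muscle at ZT4 or ZT16. Gastrocnemius gave 4 groups of 4 libraries from another experiment, in which mice had access to a running wheel by day or, as the control, by night, and were sampled at ZT4 or ZT16. Different animals made up each group, as read from the tags in the library descriptions, and how long each mouse ran was not analysed here.

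NRF2 is made continuously and, in an unstressed cell, bound by KEAP1, which hands it to a ubiquitin ligase for destruction. Oxidants and electrophiles modify cysteines of KEAP1, so that newly made NRF2 escapes, enters the nucleus, pairs with a small MAF protein and binds antioxidant response elements of its target genes. BACH1 occupies the same elements as a repressor. Contracting muscle makes reactive oxygen species, and NRF2 activity is regulated largely at the level of its protein, which these libraries do not measure.

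Totals ran from 27352875 to 79491649 estimated counts in quadriceps and from 45010256 to 70033483 in gastrocnemius, and no member had fewer than 248 counts in any library. Levels are given in CPM, counts relative to the TMM-scaled total of each library, which are not divided by gene length, so that levels are compared between libraries and never between genes. The 6 muscle markers (Ckm, Acta1, Myh4, Mylpf, Tnnt3 and Pvalb) passed the filter in both muscles, with a summed level between 123550 and 194613 CPM in each library. In the ZT12 session the sum was 182728 to 194613 CPM at +0h and 149330 to 164078 CPM in sedentary ZT12 muscle. There 0 of 6 markers passed, and 4 had an unadjusted p under 0.05. At +3h of that session the sum was 161906 to 185193 CPM (3 of 6 markers higher), and 129844 to 154599 CPM in sedentary ZT16 muscle. In the ZT0 session it was 142786 to 181272 CPM at +0h (1 of 6 higher) and 123550 to 141874 CPM in sedentary ZT0 muscle. The sum of 7 slow fibre markers (Myh7, Myl2, Myl3, Tnnc1, Tnni1, Tnnt1 and Atp2a2) ran from 67.6 to 2328 CPM over the quadriceps libraries. Within the +3h group of the ZT0 session alone it ran from 67.6 to 1596 CPM. Of these markers 0 of 7 passed with edgeR in each of the 4 comparisons with sedentary muscle. Their part in the members' values was not tested. In bulk tissue, fewer cells of a type and less RNA per cell cannot be told apart.

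The genes lie in GRCm38.p6 as follows. Nfe2l2 (gene 18024) is at chr2:75675513-75704663 and Keap1 (gene 50868) at chr9:21229730-21239332. Srxn1 (gene 76650) is at chr2:152105524-152111376, and Txnrd1 (gene 50493) is at chr10:82833951-82897724. Gclc (gene 14629) is at chr9:77754535-77794489 and Gclm (gene 14630) at chr3:122245487-122267215. Hmox1 (gene 15368) is at chr8:75093618-75100593 and Nqo1 (gene 18104) at chr8:107388225-107403205.

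Promoter sequence is shown for 3 members that the results set apart, from RefSeq for GRCm38.p6. Srxn1 had the largest fold changes of the 8 at 3 h after a run, and Nfe2l2 passed the test at the end of the run. Gclm has a match to the core of the antioxidant response element as searched here, and did not pass the test after a run. RefSeq windows (250 bases before and 50 after a transcript start) were at hand for 6 of the 8 members, 8 windows in all, and not for Gclc and Hmox1. Capitals mark 2 motifs searched on both strands, the core of the antioxidant response element, TGACNNNGC, and the AP-1 site, TGANTCA, the element of FOS and JUN proteins. In Srxn1 the GC that follows the second AP-1 match is in capitals too.
Srxn1, chr2:152105274-152105523, plus strand: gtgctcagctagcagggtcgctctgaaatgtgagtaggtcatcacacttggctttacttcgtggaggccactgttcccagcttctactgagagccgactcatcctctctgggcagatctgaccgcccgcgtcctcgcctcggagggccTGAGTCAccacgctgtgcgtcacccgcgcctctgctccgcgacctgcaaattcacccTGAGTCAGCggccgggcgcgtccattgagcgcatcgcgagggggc
Nfe2l2, chr2:75704664-75704913, minus strand: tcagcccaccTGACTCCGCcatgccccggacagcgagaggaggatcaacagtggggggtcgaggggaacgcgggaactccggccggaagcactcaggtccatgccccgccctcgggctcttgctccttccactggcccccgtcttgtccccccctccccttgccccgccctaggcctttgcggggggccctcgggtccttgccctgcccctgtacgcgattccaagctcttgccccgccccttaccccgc
Gclm, chr3:122245307-122245486, plus strand: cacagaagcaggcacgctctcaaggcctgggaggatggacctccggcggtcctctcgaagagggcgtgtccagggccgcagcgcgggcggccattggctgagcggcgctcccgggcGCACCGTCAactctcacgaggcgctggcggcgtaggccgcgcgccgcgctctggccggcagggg

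Srxn1 had 2 matches to the AP-1 letters, whose first bases lie at -102 and -45 from the transcript start. No other member window held one. Over all 32851 windows of 300 bases, 7.81% held the AP-1 letters and 0.46% held 2 or more. The match at -45 continues with GC, and TGANTCAGC, a form searched after this was seen, was found in 1.19% of windows. The letters at -45, TGAGTCAGC, match the searched core TGACNNNGC except for G in place of C, so they were not counted as a core. A core that allows G at that base was not searched, so the core counts hold for the form with C only. The response element core was found in 4 of the 8 member windows and in 12.4% of all windows. These were Nfe2l2 at -240, Gclm at -134 from the transcript start of its window (on the opposite strand), a Txnrd1 start at -92 and Srxn1 at 29 bases past its start, outside the printed stretch. The core and AP-1 letters did not overlap in these windows. A match describes letters in a window and is not a binding site.

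The first question was which members had moved by the time the mice stopped running. The regulator's own messenger was the 1 member that passed with edgeR in both sessions, and with DESeq2 Hmox1 passed too in the ZT0 session. The test was edgeR's quasi-likelihood F test, and a gene passed where its adjusted p (Benjamini-Hochberg over all 15097 genes tested in quadriceps) was under 0.05. At +0h of the ZT0 session 1 of 8 members rose and none fell, where 6.82% of all genes passed (4.29% higher, 2.53% lower). At +0h of the ZT12 session 1 of 8 rose and none fell, where 4.60% passed (3.19% higher, 1.41% lower). The median log2 fold change of the 8 was 0.13 at ZT0 and 0.15 at ZT12, beside 0.00 over all genes in each.

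Nfe2l2 stood at 64.0, 61.1 and 48.1 CPM in the 3 treadmill +0h libraries of the ZT0 session and at 32.2, 28.7 and 33.6 CPM in sedentary ZT0 muscle. Every treadmill library lay above every sedentary one. The log2 fold change was 0.88 (SE 0.14, adjusted p = 0.00088). At +0h of the ZT12 session the gene stood at 84.4, 76.4 and 62.0 CPM, against 42.5, 42.3 and 43.6 CPM in sedentary ZT12 muscle. The groups again did not overlap, and the log2 fold change was 0.80 (SE 0.14, adjusted p = 0.0018). Leaving out any library, or any other setting tried, kept both calls, with adjusted p of at most 0.0095 at ZT0 and 0.015 at ZT12.

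Keap1, the inhibitor, was at 83, 77.6 and 81.7 CPM right after the ZT0 run, and at 75.3, 82.7 and 79.1 CPM in sedentary ZT0 muscle. At +0h of the ZT12 session it was at 86.7, 88.3 and 87.0 CPM, against 73.2, 83 and 84.4 CPM. The groups overlapped at ZT0 and were adjacent at ZT12, and the log2 fold changes of 0.03 (SE 0.069, adjusted p = 0.84) and 0.12 (SE 0.069, adjusted p = 0.38) did not pass. Over all 24 quadriceps libraries Keap1 kept between 73.2 and 90.8 CPM, a ratio of 1.24, the narrowest range of the 8 members.

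**Figure D1:**
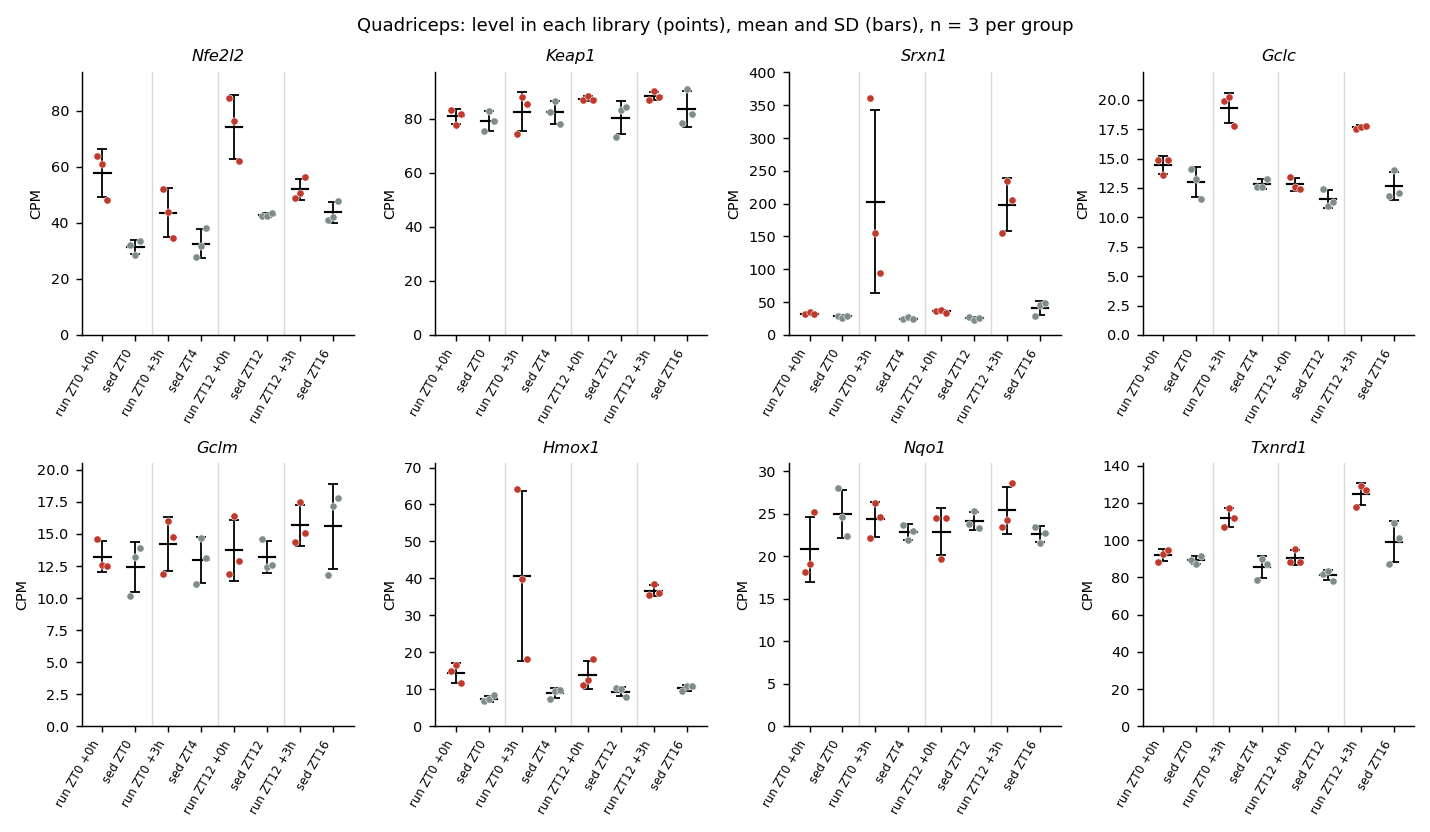
CPM of the 8 members in each quadriceps library (points), with the mean and SD of each group of 3 (bars), treadmill groups in red (run) beside their sedentary groups in grey (sed). Nfe2l2 stands highest in the +0h groups, Srxn1 and Hmox1 stand highest in the +3h groups, and Keap1 stays between 73.2 and 90.8 CPM.

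Srxn1, which encodes sulfiredoxin, the enzyme that restores overoxidised peroxiredoxins, was at 31.7, 34.2 and 31.5 CPM right after the ZT0 run and at 29.4, 26.1 and 29.5 CPM in sedentary ZT0 muscle. The ranges did not overlap, but the log2 fold change of 0.20 (SE 0.32, adjusted p = 0.77) did not pass. With the run at ZT12 it was at 36.6, 37.5 and 33.7 CPM, against 27, 23.2 and 26.0 CPM, and the log2 fold change of 0.50 (SE 0.32, adjusted p = 0.47) did not pass either. In the fit of these 6 libraries alone, which does not share its spread with the +3h groups, the ZT12 difference passed (0.50, adjusted p = 0.013). Against sedentary ZT16 muscle it had the opposite sign (-0.20, adjusted p = 0.78).

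Hmox1, which encodes the haem-degrading enzyme haem oxygenase 1, had 15, 16.7 and 11.6 CPM right after the ZT0 run and 6.79, 7.27 and 8.41 CPM in sedentary ZT0 muscle. All 3 treadmill libraries lay above all 3 sedentary ones, and the log2 fold change of 0.95 (SE 0.31) had an adjusted p of 0.069. The same difference passed with DESeq2 (0.95, adjusted p = 0.012) and in the fit of these 6 libraries alone (0.95, adjusted p = 0.015). Macrophages are a known source of Hmox1, and the summed level of 8 macrophage markers was 148 to 177 CPM in these treadmill libraries and 109 to 124 CPM in sedentary ZT0, with 0 of the 8 passing (unadjusted p was under 0.05 for 4, and 0 passed with DESeq2). Their part in the Hmox1 values was not tested. Hmox1 in the ZT12 session was at 11.2, 12.4 and 18.1 CPM, against 10.3, 9.96 and 7.96 CPM. These groups did not overlap either, and the difference did not pass (0.56, SE 0.30, adjusted p = 0.37). There the macrophage sum was 122 to 133 CPM at +0h and 114 to 141 CPM in sedentary ZT12 muscle, and 0 of the 8 markers passed with edgeR or DESeq2 or had an unadjusted p under 0.05.

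The other 4 members did not pass at +0h in either session. Nqo1, a quinone reductase often used as a readout of NRF2, was at 18.2, 19.1 and 25.2 CPM right after the ZT0 run and at 28.0, 24.6 and 22.4 CPM in sedentary ZT0 muscle. The groups overlapped through the third treadmill library (log2 fold change -0.27, SE 0.11, adjusted p = 0.16). Without that library, which has the lowest total count of the series, the log2 fold change was -0.41 and passed (adjusted p = 0.025). At ZT12 the log2 fold change of Nqo1 was -0.07 (SE 0.11). Gclc, Gclm and Txnrd1 had log2 fold changes between 0.04 and 0.16 in both sessions, with adjusted p of at least 0.24.

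The next comparison set muscle 3 h after the run against sedentary muscle of about the same clock time. Here 4 of 8 members rose in the ZT0 session and 4 of 8 in the ZT12 session, and none fell. All 4 were shared between the sessions, namely Srxn1, Txnrd1, Gclc and Hmox1. Of all genes, 13.6% passed in the ZT0 session (6.96% higher, 6.63% lower) and 17.2% in the ZT12 session (8.70% higher, 8.53% lower). The median log2 fold change of the 8 members was 0.41 at ZT0 and 0.29 at ZT12, beside 0.00 over all genes in each.

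Srxn1 reached 361, 155 and 93.6 CPM in the 3 treadmill +3h libraries of the ZT0 session, against 24, 27 and 23.8 CPM in sedentary ZT4 muscle. The lowest treadmill library was far above the highest sedentary one, and the treadmill libraries differed widely among themselves. The log2 fold change was 3.03 (SE 0.34, adjusted p = 2.2e-05). Without the first treadmill library it was 2.32 and still passed, and in the fit of these 6 libraries alone it was 3.02 and did not pass (adjusted p = 0.053). After the ZT12 run Srxn1 was at 155, 234 and 206 CPM, against 29.1, 46.1 and 48.4 CPM in sedentary ZT16 muscle. The groups did not overlap, and the log2 fold change of 2.27 (SE 0.33, adjusted p = 0.00014) passed under every setting tried.

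Txnrd1 encodes the cytosolic thioredoxin reductase, which keeps thioredoxin reduced with NADPH. It was at 107, 117 and 112 CPM 3 h after the ZT0 run and at 78.7, 90.0 and 87.4 CPM in sedentary ZT4 muscle. The groups did not overlap, and the log2 fold change was 0.39 (SE 0.069, adjusted p = 0.00075). After the ZT12 run it was at 118, 129 and 127 CPM, against 87.2, 109 and 101 CPM in sedentary ZT16 muscle. The groups were again apart (0.33, SE 0.069, adjusted p = 0.002), and in the fit of these 6 libraries alone the adjusted p was 0.051.

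Gclc and Gclm encode the catalytic and the modifier subunit of glutamate-cysteine ligase, which makes the first bond of glutathione. Gclc was at 19.9, 20.2 and 17.8 CPM 3 h after the ZT0 run and at 12.6, 12.6 and 13.3 CPM in sedentary ZT4 muscle. At ZT12 it was at 17.5, 17.7 and 17.8 CPM, against 11.8, 14.0 and 12.1 CPM in sedentary ZT16 muscle. Each treadmill library lay above all its sedentary libraries in both sessions. The log2 fold changes were 0.59 (SE 0.078, adjusted p = 4.9e-05) and 0.48 (SE 0.078, adjusted p = 0.0002), and both passed under every setting tried.

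Gclm, the partner subunit, did not pass. At +3h of the ZT0 session it was at 11.9, 16 and 14.8 CPM, and in sedentary ZT4 muscle at 11.1, 14.7 and 13.1 CPM. At ZT12 it was at 14.4, 17.5 and 15.1 CPM, against 11.8, 17.2 and 17.8 CPM. The ranges overlapped in both sessions, with log2 fold changes of 0.14 (SE 0.16, adjusted p = 0.64) and 0.01 (SE 0.16, adjusted p = 0.99).

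Hmox1 stood at 64.2, 39.9 and 18.2 CPM 3 h after the ZT0 run and at 7.36, 9.68 and 9.79 CPM in sedentary ZT4 muscle. No library of one group fell in the range of the other. The log2 fold change was 2.19 (SE 0.31, adjusted p = 0.00014), and in the fit of these 6 libraries alone it had an adjusted p of 0.078. At ZT12 the treadmill libraries lay close together at 35.5, 38.5 and 36.1 CPM, against 9.54, 10.8 and 11 CPM in sedentary ZT16 muscle. The groups were far apart, and the log2 fold change of 1.81 (SE 0.30, adjusted p = 0.00046) passed under every setting tried. The macrophage sum was 101 to 169 CPM at +3h and 120 to 165 CPM in sedentary ZT4 muscle. At ZT12 it was 113 to 190 CPM at +3h and 123 to 190 CPM in sedentary ZT16, and of the 8 markers 0 were higher in either session and 1 was lower at ZT12 (DESeq2 called 0 at ZT0 and 1 at ZT12). The 3 neutrophil markers that could be tested summed to at most 3.04 CPM in any library, and 2 of the 3 were higher at +3h of the ZT12 session.

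Nqo1 was at 22.1, 26.3 and 24.6 CPM 3 h after the ZT0 run and at 23.7, 21.9 and 23.0 CPM in sedentary ZT4 muscle. At ZT12 it was at 23.4, 24.3 and 28.6 CPM, against 23.5, 21.6 and 22.7 CPM. The ranges overlapped in both, and the log2 fold changes of 0.09 (SE 0.11, adjusted p = 0.67) and 0.17 (SE 0.11, adjusted p = 0.34) did not pass. Keap1 differed by 0.01 (SE 0.069) at ZT0 and by 0.08 (SE 0.068) at ZT12 on the log2 scale.

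Nfe2l2 itself was at 52.1, 44.0 and 34.7 CPM 3 h after the ZT0 run, against 27.8, 31.8 and 38.2 CPM in sedentary ZT4 muscle. The ranges overlapped, and the log2 fold change of 0.42 (SE 0.14, adjusted p = 0.056) lay just outside the threshold. It passed without the third treadmill library (0.56, adjusted p = 0.012), without the third sedentary library (0.55, adjusted p = 0.029), with DESeq2 (0.43, adjusted p = 0.03) and against sedentary ZT0 muscle (0.47, adjusted p = 0.033). Without the first treadmill library it was 0.27 (adjusted p = 0.24). In the ZT12 session it was at 48.9, 50.7 and 56.2 CPM, against 41.0, 42.2 and 47.9 CPM. Those ranges were adjacent without overlap, and the log2 fold change of 0.25 (SE 0.14, adjusted p = 0.26) did not pass.

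**Figure D2:**
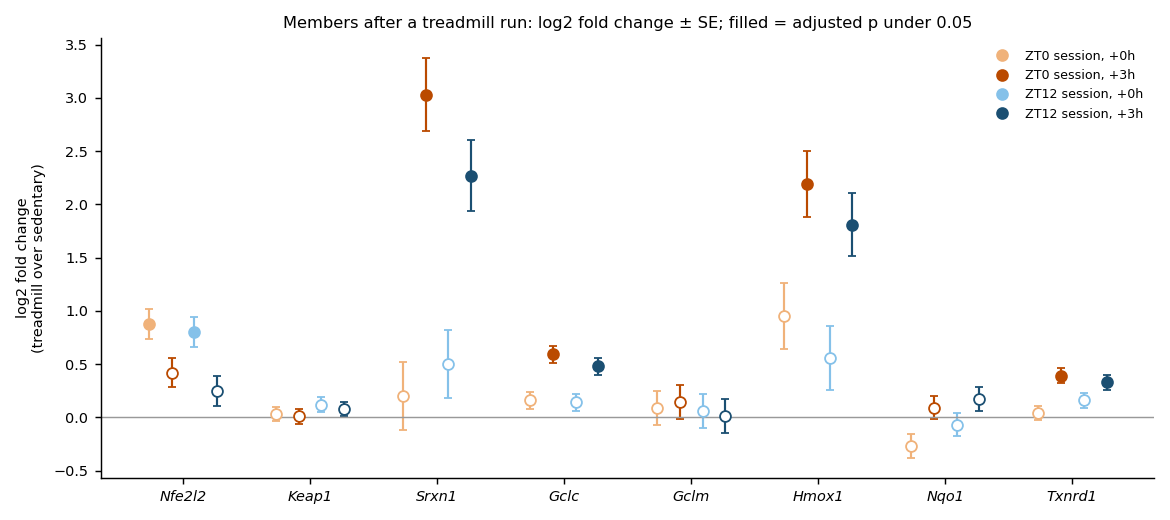
Log2 fold change (treadmill over sedentary, ± SE) of each member at +0h and +3h of both sessions, filled where the adjusted p is under 0.05. Nfe2l2 is filled at +0h only, at 0.88 and 0.80, and Srxn1, Hmox1, Gclc and Txnrd1 are filled at +3h only, from 0.33 to 3.03.

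The order of the libraries within a group was compared for Srxn1, Hmox1 and Nfe2l2. At +3h of the ZT0 session the first library was highest and the third lowest for Srxn1 (361 and 93.6 CPM), Hmox1 (64.2 and 18.2 CPM) and Nfe2l2 (52.1 and 34.7 CPM). At +3h of the ZT12 session the second library was highest and the first lowest for Srxn1 (234 and 155 CPM) and Hmox1 (38.5 and 35.5 CPM), but not for Nfe2l2, where the third was highest. Right after the ZT12 run the third library was lowest for Srxn1 (33.7 CPM) and Nfe2l2 (62.0 CPM) and highest for Hmox1 (18.1 CPM). Right after the ZT0 run the third library was lowest for Srxn1 (31.5 CPM), Nfe2l2 (48.1 CPM) and Hmox1 (11.6 CPM). There the second was highest for Srxn1 (34.2 CPM) and Hmox1 (16.7 CPM), and the first for Nfe2l2 (64.0 CPM). Srxn1 ran over a ratio of 15.6 and Hmox1 over 9.45 between the lowest and the highest of the 24 libraries. The ratio was 3.03 for Nfe2l2 and at most 1.84 for the other 5.

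Treadmill muscle at +3h was also set against treadmill muscle at +0h of the same session, with the libraries used above, so that these values are not independent of those. In the ZT0 session 4 of 8 members were higher at +3h and none lower (14.1% of all genes passed, 6.33% higher and 7.80% lower). For the ZT12 session 4 were higher and 1 lower (15.8% passed, 7.28% higher and 8.47% lower). The 4 higher ones were Srxn1 (log2 fold change 2.65 at ZT0 and 2.47 at ZT12), Hmox1 (1.49 and 1.41), Gclc (0.41 and 0.46) and Txnrd1 (0.29 and 0.46). The log2 fold change of Nfe2l2 had the opposite sign, at -0.41 (SE 0.14, adjusted p = 0.062) at ZT0 and -0.52 (SE 0.14, adjusted p = 0.016) at ZT12. The ZT12 call was lost without the first or second library of either group, with adjusted p between 0.055 and 0.081. At ZT0, in the fit of the 6 libraries alone, only Gclc of the 4 risers passed, and without the first +3h library Srxn1 was at 1.94.

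Whether the time of the session mattered was asked of each response by an interaction term, ZT12 session minus ZT0 session. At +0h 0 of 8 members passed, where 0.00% of all genes did with edgeR (1912 genes had an unadjusted p under 0.05, and 16 passed with DESeq2). At +3h 0 of 8 passed, where 1.59% did (0.649% higher, 0.941% lower). None of the 8 had an unadjusted p under 0.05 at either time, and DESeq2 called 0 of 8 at both. The largest difference at +3h was that of Srxn1, at -0.76 (SE 0.45, adjusted p = 0.51), an error too wide to show that the sessions acted alike. Without the first treadmill +3h library of the ZT0 session it was -0.05, and Hmox1, at -0.38 with all libraries, was at 0.10.

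Ordered by mean level over the quadriceps groups, Nfe2l2 ran from 31.5 CPM in sedentary ZT0 and 32.6 CPM in sedentary ZT4 through sedentary ZT12 (42.8 CPM), treadmill +3h ZT0 (43.6 CPM) and sedentary ZT16 (43.7 CPM) to treadmill +3h ZT12 (52.0 CPM), treadmill +0h ZT0 (57.7 CPM) and treadmill +0h ZT12 (74.3 CPM). Neighbours in this order overlapped, except at the step above sedentary ZT4 and the step above sedentary ZT16. Srxn1 was lowest in sedentary ZT4 (24.9 CPM), ZT12 (25.4 CPM) and ZT0 (28.4 CPM), followed with a gap by treadmill +0h ZT0 (32.5 CPM), treadmill +0h ZT12 (35.9 CPM) and sedentary ZT16 (41.2 CPM). Above a second gap came treadmill +3h ZT12 (199 CPM) and +3h ZT0 (203 CPM), which overlapped. Hmox1 had 3 steps too, with all 4 sedentary groups lowest at 7.49 to 10.5 CPM, then the +0h groups at 13.9 and 14.4 CPM and the +3h groups highest at 36.7 and 40.8 CPM. For Keap1, Gclm and Nqo1 no neighbours in the order were apart.

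Among the 4 sedentary groups alone, an F test called 2 of 8 members (17.1% of all genes), Nfe2l2 (adjusted p = 0.029) and Txnrd1 (adjusted p = 0.025). Nfe2l2 averaged 31.5 ± 2.5 CPM at ZT0, 32.6 ± 5.24 at ZT4, 42.8 ± 0.699 at ZT12 and 43.7 ± 3.71 at ZT16 (SD, n = 3 each). The count fell to 0 or 1 without any of 9 of the 12 libraries, so that neither call is firm. The same test called 5 of 7 endothelial markers, whose sum was 266 to 313 CPM at ZT0, 266 to 307 CPM at ZT4, 178 to 239 CPM at ZT12 and 237 to 251 CPM at ZT16. It also called 2 of 8 adipocyte markers and 1 of 8 macrophage markers. Their part in the Nfe2l2 and Txnrd1 values was not tested.

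In gastrocnemius the wheel schedule was compared at each clock time over 14523 genes. Nfe2l2 alone of the 8 passed, higher under day access at ZT4 and lower at ZT16. At ZT4 13.1% of all genes passed (6.36% higher, 6.78% lower) and at ZT16 0.565% did (0.275% higher, 0.289% lower). Nfe2l2 stood at 36.1, 34.8, 38.9 and 42 CPM in the 4 day wheel libraries at ZT4 and at 25.4, 23.0, 24.3 and 26.2 CPM in the 4 night wheel libraries. The groups did not overlap (log2 fold change 0.62, SE 0.061, adjusted p = 1.1e-05). At ZT16 it stood at 33.8, 33.0, 28.9 and 32.3 CPM under day access, against 38.5, 40.9, 41.6 and 41.4 CPM under night access. All day libraries lay below all night ones (log2 fold change -0.34, SE 0.061, adjusted p = 0.014), though the call at ZT16 was lost without night wheel replicate 3 or day wheel replicate 3 or 4 (adjusted p of 0.051 to 0.053). The difference between the schedules in the step between the clock times, ZT16 minus ZT4, was -0.96 (SE 0.086, adjusted p = 2.5e-06), held under all 20 alternatives tried, and was the 1 call among the 8 where 9.74% of all genes passed (4.68% higher, 5.07% lower). At ZT4 the summed level of 7 endothelial markers was 210 to 235 CPM under day access and 263 to 292 CPM under night access, with 5 of the 7 lower. Their part in the Nfe2l2 values was not tested.

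The other 7 members gave no call between schedules. Srxn1 had 20.4, 25.5, 26.8 and 23.4 CPM under day access at ZT4, against 18.8, 18.9, 19.1 and 24.7 CPM under night access. At ZT16 it had 31.4, 30.1, 30.7 and 28.5 CPM under day access and 34.5, 42.9, 31.9 and 28.9 CPM under night access. The schedules overlapped at both times, while within each schedule ZT16 lay above ZT4 in every library. Hmox1 had 6.61, 6.83, 7.47 and 7.44 CPM under day access at ZT16, all below the 9.05, 11, 8.70 and 8.03 CPM under night access, a difference that did not pass. Nqo1 went the other way at ZT16, with 31.1 to 34.9 CPM under day access and 27.9 to 30.5 CPM under night access. Gclm at ZT4 had 9.64 to 11.3 CPM under day access and 11.4 to 12.7 CPM under night access. Neither of these differences passed.

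**Figure D3:**
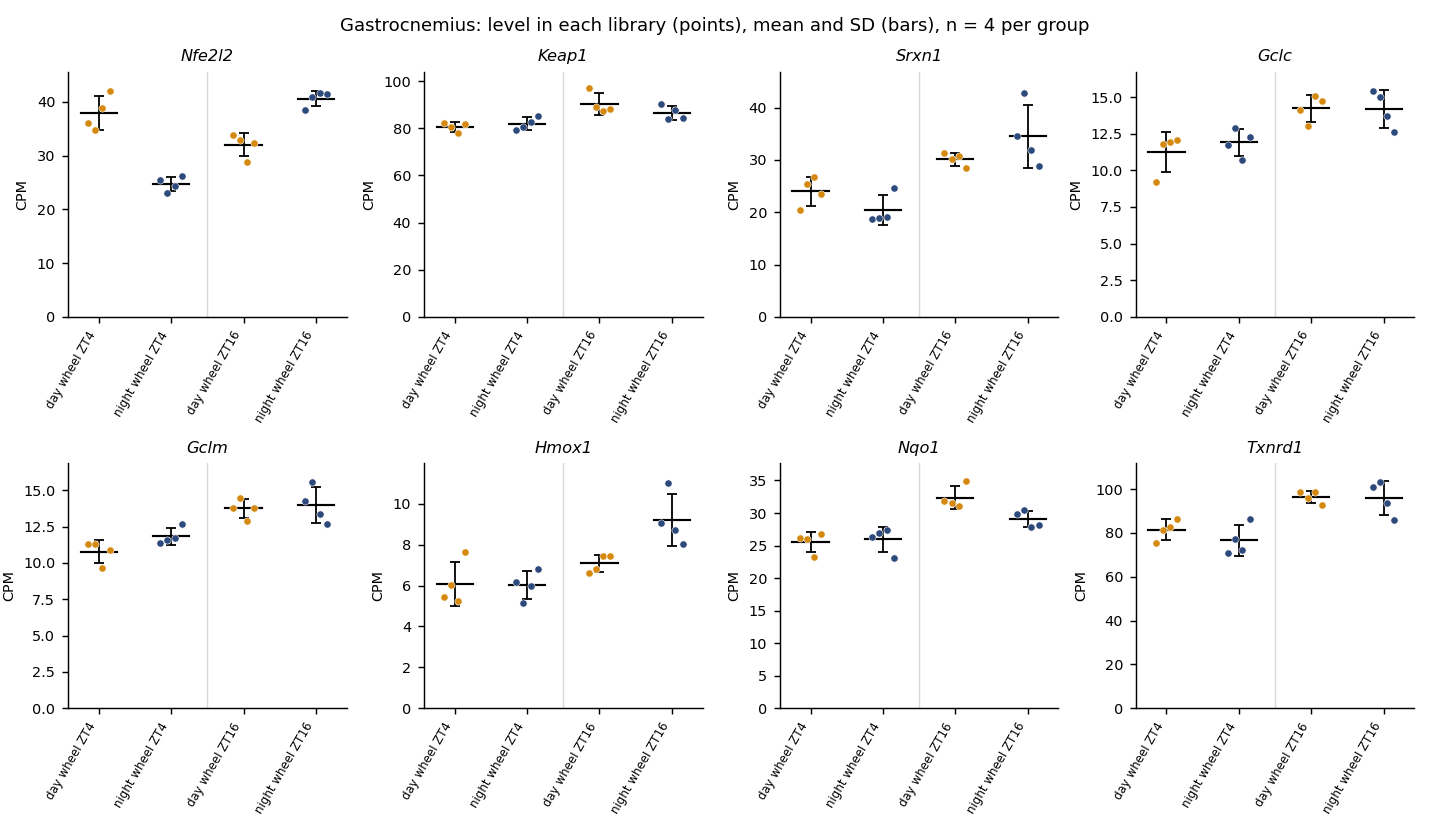
CPM of the 8 members in each gastrocnemius library (points), with the mean and SD of each group of 4 (bars), day wheel access in orange left of night wheel access in blue at ZT4 and at ZT16. Nfe2l2 is higher under day access at ZT4 and lower at ZT16, and for the other members the schedules overlap or differ without passing the test.

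Most members differed between ZT16 and ZT4 within each schedule. Wheel access also differed between these clock times within a schedule, so a comparison within 1 schedule cannot tell clock time from access. The difference of this step between the schedules, tested above, sets the 2 schedules side by side. Under night access 6 of 8 were higher at ZT16 and none lower (18.8% of all genes passed, 9.41% higher and 9.38% lower). In the same comparison 4 of 7 endothelial markers and 3 of 8 macrophage markers were lower, with sums of 200 to 256 CPM at ZT16 and 263 to 292 CPM at ZT4 for the endothelial list and of 82 to 95.1 CPM at ZT16 and 101 to 125 CPM at ZT4 for the macrophage list. Their part in the members' values was not tested. Under day access 5 were higher and 1 lower (14.9% passed, 7.70% higher and 7.17% lower), and there 0 endothelial and 0 macrophage markers passed with edgeR (unadjusted p was under 0.05 for 2 and 0, and 1 and 0 passed with DESeq2). Srxn1 rose by 0.76 (SE 0.12, adjusted p = 0.00047) under night access and Hmox1 by 0.60 (SE 0.12, adjusted p = 0.0011), and under day access their values of 0.33 (adjusted p = 0.079) and 0.22 (adjusted p = 0.22) did not pass. The difference between schedules passed for neither. Txnrd1 was at 98.6, 96.1, 98.7 and 92.9 CPM at ZT16 and at 75.2, 81.2, 82.8 and 86.5 CPM at ZT4 under day access, without overlap, and rose in both schedules (0.25 under day access, 0.32 under night access).

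Both ligase subunits were higher at ZT16. Gclm rose by 0.35 (adjusted p = 0.0017) under day access and 0.24 (adjusted p = 0.02) under night access, and Gclc by 0.34 (adjusted p = 0.011) and 0.25 (adjusted p = 0.049). The night call of Gclc was the weakest, lost in 10 of 13 alternatives, among them the fit with the replicate number as a block (adjusted p = 0.072). Nqo1, which did not pass after a treadmill run, was at 31.9, 31.5, 31.1 and 34.9 CPM at ZT16 under day access, against 26.2, 26.0, 23.3 and 26.7 CPM at ZT4. No ZT16 library overlapped the ZT4 group (log2 fold change 0.34, adjusted p = 0.00058), and under night access the value was 0.17 (adjusted p = 0.053). Keap1 rose by 0.16 (adjusted p = 0.01) under day access. Nfe2l2 rose by 0.71 (adjusted p = 2.3e-07) under night access and fell by 0.25 (adjusted p = 0.0093) under day access.

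The wider pathway was read from 7 lists of 90 other genes, 88 of them tested in quadriceps. At +0h 9 rose and 2 fell in the ZT0 session, and 3 rose and 2 fell in the ZT12 session. At +3h 8 rose and 2 fell in the ZT0 session, and 11 rose and 2 fell in the ZT12 session. Their median log2 fold change was 0.04 and -0.04 at +0h and 0.03 and 0.07 at +3h (ZT0 session, then ZT12 session), beside 0.00 to 2 decimals for all genes. Beside these stand the 6.82%, 4.60%, 13.6% and 17.2% of all genes that passed.

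In the list of NRF2 partners, repressors and adaptors 2 of 13 tested genes were higher at +0h in each session and 1 was lower in the ZT12 session, and at +3h 5 were higher in the ZT0 session and 4 higher and 2 lower in the ZT12 session. Of all genes, 4.29% were higher and 2.53% lower at +0h of the ZT0 session, and 3.19% and 1.41% at ZT12. At +3h the shares were 6.96% higher and 6.63% lower at ZT0, and 8.70% and 8.53% at ZT12. Maff, a small MAF partner of NRF2, averaged 22.3 ± 5.16 CPM right after the ZT0 run and 2.37 ± 0.654 CPM in sedentary ZT0 muscle (SD, n = 3 each; log2 fold change 3.25, SE 0.36, adjusted p = 6.9e-05). It averaged 30.2 ± 13.2 CPM at +0h of the ZT12 session and 2.87 ± 0.406 CPM in sedentary ZT12 muscle (3.39, SE 0.36, adjusted p = 2.9e-05). Mafk, another small MAF, rose at +0h by 0.92 and 1.29 in the ZT0 and ZT12 sessions and at +3h by 1.5 and 1.87. Bach1, the repressor, averaged 47.5 ± 3.66 CPM 3 h after the ZT0 run and 25.2 ± 1.53 CPM in sedentary ZT4 muscle (0.91, SE 0.12, adjusted p = 6.3e-05). At ZT12 it averaged 74.5 ± 16.5 CPM at +3h and 32.4 ± 5.35 CPM in sedentary ZT16 (1.2, SE 0.12, adjusted p = 1.5e-06). Bach1 had not passed at +0h, with -0.02 and 0.25. Sqstm1, whose protein p62 draws KEAP1 into autophagy, rose at +3h by 0.37 and 0.59. The rule for named genes took the 3 with the smallest p of each list, and the remaining calls, named after their values were seen, were Maff (1.34 and 2.23 at +3h), Mafg (0.31 at +3h of the ZT0 session), and Btrc (-0.27) and Rbm8a (-0.29) at +3h of the ZT12 session. Trim21 fell at +0h of the ZT12 session (-1.06).

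**Figure D4:**
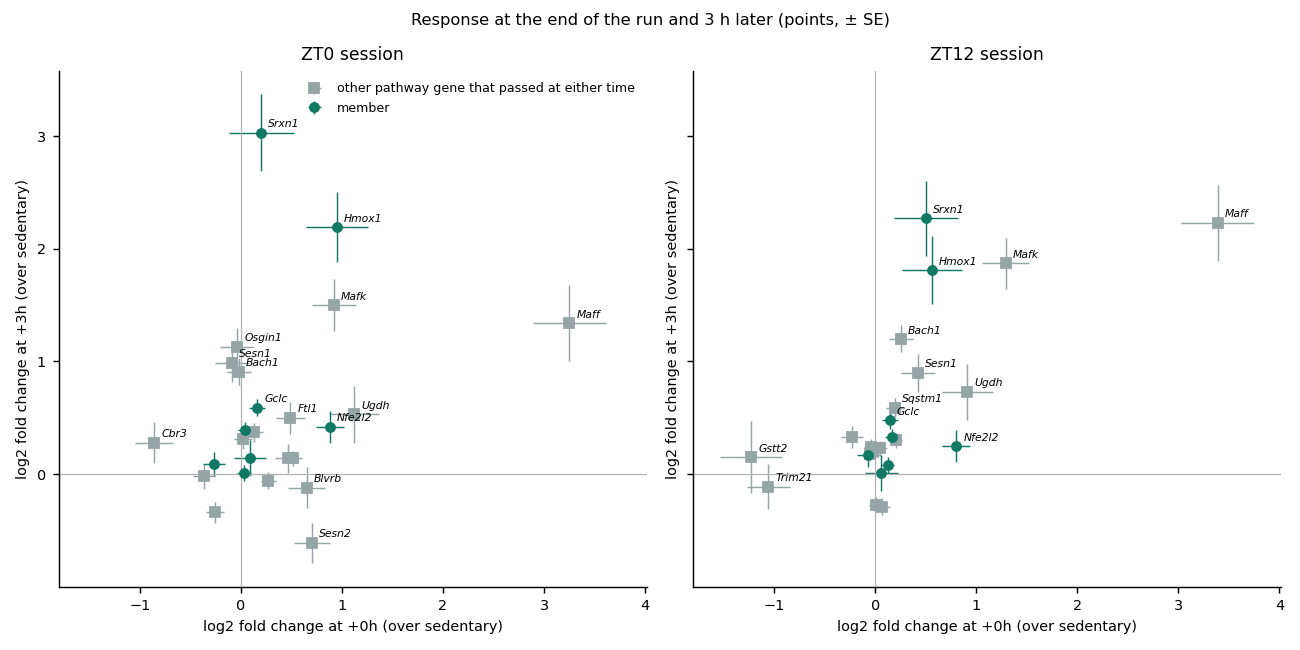
Log2 fold change over sedentary muscle at +0h (x axis) and at +3h (y axis), ± SE, for the 8 members (green) and the other pathway genes that passed at either time (grey squares), one panel per session. Genes near the origin carry no name. Maff and Mafk are raised on both axes. Nfe2l2 has a larger value at +0h than at +3h, and Srxn1, Hmox1 and Bach1 have larger values at +3h than at +0h.

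The remaining lists held scattered calls, and the same shares of all genes stand beside them. In the glutathione list Slc3a2, the heavy chain of the cystine and glutamate exchanger, rose by 0.51 (adjusted p = 0.00014) and Gpx1 by 0.47 at +0h of the ZT0 session. Gstt2 fell by 1.23 at +0h of the ZT12 session, and Slc3a2 (0.30), Gss (0.33) and Gstp1 (0.23) rose at +3h of that session, while with edgeR 0 of 22 passed at +3h of the ZT0 session (unadjusted p was under 0.05 for 3, and 2 passed with DESeq2). In the list of thioredoxins, peroxiredoxins and sestrins 2 of 16 rose at +0h of the ZT0 session, 1 rose and 2 fell at +3h, and 2 rose at +3h of the ZT12 session. Over all genes 4.29% rose at +0h of the ZT0 session, and at +3h 6.96% rose and 6.63% fell. In the ZT12 session 8.70% of all genes rose at +3h. Sesn1, of the stress-induced sestrin family, rose at +3h by 0.99 (adjusted p = 0.00086) and 0.90 (adjusted p = 0.0012), whereas Sesn2 rose by 0.70 at +0h of the ZT0 session and fell by 0.61 at +3h. Txnrd2, the mitochondrial thioredoxin reductase, rose by 0.27 at +0h of the ZT0 session and by 0.24 at +3h of the ZT12 session, and Msrb2, a methionine sulfoxide reductase, fell by 0.34 at +3h of the ZT0 session. In the haem and iron list Ftl1, the ferritin light chain, rose by 0.49 at +0h and 0.50 at +3h of the ZT0 session, and Fth1, the heavy chain, by 0.20 at +3h of the ZT12 session. Blvrb, a biliverdin reductase, rose by 0.65 at +0h of the ZT0 session, and Slc40a1, the iron exporter ferroportin, fell by 0.37. Of the detoxification genes, Ugdh rose at +0h in both sessions (1.12 and 0.91), Cbr3 fell at +0h of the ZT0 session (-0.86), and Osgin1 and Esd gave the calls at +3h of the ZT0 and ZT12 sessions (1.13 and 0.18). The 5 genes of superoxide and peroxide removal (Sod1, Sod2, Sod3, Cat and Ccs) gave 0 calls with edgeR in each of the 4 comparisons with sedentary muscle. At +0h of the ZT0 session unadjusted p was under 0.05 for 3 of them and 1 passed with DESeq2, and in the other comparisons DESeq2 called 0. Right after the ZT0 run the 8 adipocyte markers summed to 324 to 2055 CPM, against 233 to 697 CPM in sedentary ZT0 muscle. The 8 macrophage markers summed to 148 to 177 CPM, against 109 to 124 CPM. With edgeR 0 of 8 passed in each, and with DESeq2 2 and 0. The part of these tissues in the calls of the lists above was not tested.

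Osgin1, a growth inhibitor induced by oxidative stress, was the 1 gene of the 88 whose response differed between the sessions, by -1.55 (SE 0.24, adjusted p = 0.0031) at +3h, where 1.59% of all genes did. It averaged 29.2 ± 2.38 CPM 3 h after the ZT0 run and 13.4 ± 1.53 CPM in sedentary ZT4 muscle. At ZT12 it averaged 33.8 ± 4.9 CPM at +3h and 45.1 ± 5.73 CPM in sedentary ZT16 muscle (SD, n = 3 each). The sedentary groups themselves differed (F test, adjusted p = 1.1e-05), while the +3h groups stood close together.

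Genes of NADPH supply, which feed both thioredoxin and glutathione reduction, gave 0 calls of 8 with edgeR in each treadmill comparison against sedentary muscle. At +0h of the ZT0 session unadjusted p was under 0.05 for 6 and 3 passed with DESeq2, and in the others it was so for at most 1 and 0 passed with DESeq2. Their median log2 fold change was 0.57 at +0h of the ZT0 session and -0.41 at +0h of the ZT12 session. The 8 adipocyte markers had medians of 1.85 and -1.40 in the same comparisons, also with 0 of 8 passing with edgeR (7 and 1 with an unadjusted p under 0.05, 2 and 0 with DESeq2). Their summed level was 324 to 2055 CPM right after the ZT0 run and 233 to 697 CPM in sedentary ZT0 muscle, and 267 to 961 CPM at +0h of the ZT12 session and 497 to 2859 CPM in sedentary ZT12 muscle. The part of fat tissue in these values was not tested.

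In gastrocnemius 3 of the 13 tested NRF2 partners, repressors and adaptors were higher under day access at ZT4 and none lower. There 13.1% of all genes passed. At ZT16 none of this list was higher and 1 was lower, where 0.565% of all genes passed. At ZT4 under day against night access Maff was higher by 0.93 (adjusted p = 0.00016), Mafk by 0.56 (adjusted p = 0.00011) and Bach1 by 0.43 (adjusted p = 0.0027). At ZT16 Maff was lower, at -1.0 (adjusted p = 0.0022). The step between clock times differed between schedules by -1.93 for Maff, -0.86 for Mafk and -0.48 for Bach1, each past the threshold, as Nfe2l2 was at -0.96. Trim21, a gene of the list named after its values were seen, passed with the opposite sign, at 0.73 (adjusted p = 0.036). Of the 88 genes of all lists tested there, 8 were higher and 6 lower in that difference, with a median of 0.00, where 9.74% of all genes passed (4.68% higher, 5.07% lower).

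The genes whose profiles over the 24 quadriceps libraries were most like those of 3 members were found by the root mean square (RMS) difference of centred log2 CPM among 11057 genes with an average log2 CPM of at least 1. Nearest to Srxn1 (whose own RMS about its mean was 1.19) were Slc22a4 (difference 0.41), Flnc (0.42), Hbegf (0.44) and Retreg1 (0.46). Hmox1 (own RMS 0.89) was nearest to Klhl40 (0.33), Ccl9 (0.37), Flnc (0.39) and Sgms2 (0.39). Flnc, which encodes the muscle cross-linker filamin C, stood in both sets, at 1.98 (SE 0.32, adjusted p = 0.00057) and 1.59 (SE 0.32, adjusted p = 0.002) at +3h of the ZT0 and ZT12 sessions. Nfe2l2 (own RMS 0.41) was nearest to Tspyl2 (0.21), Lrrc8a, Lrrc8c and Mnt (each 0.23). Lrrc8a, a subunit of volume-regulated anion channels, rose by 0.90 and 0.69 at +0h and was at -0.05 and 0.05 at +3h. No other member was among the 4 nearest of any of the 3. These genes were picked by their profiles over the same 24 libraries, so their fold changes there are not separate evidence. In gastrocnemius, which the search did not use, the differences were 0.28 to 0.68 for the 4 nearest of Srxn1 (own RMS 0.33). They were 0.26 to 0.57 for those of Hmox1 and 0.11 to 0.34 for those of Nfe2l2 (own RMS 0.29 each).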

How the data were processed

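Messenger RNA of quadriceps and gastrocnemius was sequenced from 40 libraries, each on 2 lanes, with a stranded TruSeq kit, per the labels' protocols. The authors deposited estimated counts per gene and lane, made with kallisto 0.46.2 after bcl2fastq 2.20.0.422, per the submitters' processing notes, which also name DESeq2 1.26.0 and the builds GRCm38.p6 and mm10. The annotation, the summing to genes and the use of strand in counting are not given in the sources used here. Gene identifiers of 23614 rows matched a RefSeq gene table, and 7 did not.

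Lanes were summed and rounded to whole numbers. Genes were tested with edgeR 4.0.16 (quasi-likelihood, robust, TMM, limma 3.58.1, R 4.3.3), 1 fit per muscle, after the default filter (minimum count 10), which left 15097 and 14523 genes. Adjusted p values are Benjamini-Hochberg over those genes, with a threshold of 0.05. SE is the log2 fold change divided by the root of F. CPM uses TMM-scaled library sizes. Because groups share 1 estimate of spread, a gene that varies in 1 group has a larger error in all. The script was tested on simulated data.

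The alternatives were DESeq2 1.42.0, RLE size factors, no filter, the groups compared alone, the replicate number as a block, another sedentary control and each library left out. Same-numbered libraries did not deviate together (median correlation -0.006 in quadriceps and 0.011 in gastrocnemius), so the numbers do not pair the samples. No 2 libraries of a group agreed within sampling noise. That the libraries come from separate animals is read from their tags; where it is not so, p values measure only the spread between samples. Named genes were all 8 members, up to 3 genes per wider list and comparison with the smallest p among those passed, and the 4 nearest profiles of Srxn1, Nfe2l2 and Hmox1. Members, lists and comparisons were chosen with earlier results of these data known.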

Additional observations from a re-analysis of the deposited data

Results flagged for a closer look

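The step of Nfe2l2 between clock times differed between the wheel schedules by -0.96 on the log2 scale (day minus night, SE 0.086, adjusted p = 2.5e-06). It was flagged because the difference itself passed the test and the schedules moved the gene in opposite directions. In single libraries, 3 of the 32 member and group combinations with 4 samples had 1 library far from the other 3 by Dixon's criterion, where chance gives about 1 in 20. Keap1 was at 97 CPM in day wheel ZT16 replicate 1, above the 87.2 to 88.8 CPM of the others. Srxn1 was at 24.7 CPM in night wheel ZT4 replicate 4, above 18.8 to 19.1 CPM, and without that library the schedule difference of its clock step was -0.54 and passed (adjusted p = 0.041). Gclc was at 9.23 CPM in day wheel ZT4 replicate 1, below 11.8 to 12.1 CPM.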

How the results depend on the processing

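No member's call changed direction under any alternative. Apart from the replicate block, the member counts below leave out changes that were small beside the full count. Among those left out, Txnrd1 did not pass at +3h of the ZT12 session in the fit of only the groups compared. Nfe2l2 passed at +3h of the ZT0 session with DESeq2, and lost its call for +3h against +0h of the ZT12 session without some single libraries. The number of members passed was 2 in place of 1 at +0h of the ZT0 session with DESeq2 and in the fit of only the groups compared, 2 in place of 1 at +0h of the ZT12 session in that fit, 2 in place of 4 at +3h of the ZT0 session in that fit, and 1 in place of 4 for +3h against +0h of the ZT0 session in that fit. Leaving out 1 library gave 0 to 2 among the sedentary groups (2 in full), 1 to 2 at +0h of the ZT0 session (1 in full), 1 to 2 for the schedule difference of the clock step (1 in full) and 0 to 1 for day against night access at ZT16 (1 in full). With the replicate number as a block, 5 in place of 6 members passed for ZT16 against ZT4 under night access, and no other count of members changed. The cause of these changes was not tested, beyond the fewer samples that the smaller fits hold. Over all genes, the fit of the groups compared called 529 in place of 1029 genes at +0h and 1105 in place of 2052 at +3h of the ZT0 session, 385 in place of 695 at +0h of the ZT12 session, 654 in place of 2133 for +3h against +0h of the ZT0 session, 113 in place of 240 for the session difference at +3h, 1 in place of 0 at +0h, and 35 in place of 82 for the schedules at ZT16. DESeq2 called 448, 16 and 369 in those last 3 comparisons. Leaving out 1 library took the counts as low as 390 at +0h of the ZT0 session, 380 at +0h of the ZT12 session, 1724 (2602 in full) at +3h of the ZT12 session, 107 for the session difference at +3h, 1390 for +3h against +0h of the ZT0 session, 1558 (2578 in full) among the sedentary groups, 1139 (1907 in full) for the schedules at ZT4 and 19 (up to 163) at ZT16, and as high as 322 for the session difference at +0h. Against sedentary ZT16 muscle, 1180 genes passed at +0h of the ZT12 session. The fit of only the groups compared has no separate form for the schedule difference, which uses all 4 groups. Groups of 3 libraries in quadriceps and 4 in gastrocnemius limit the precision.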
